A study of Homo sapiens with 3 samples.

Results

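Long noncoding RNAs with LINC names were profiled after knockdown of PRMT1 in HCT116, an established line of human colorectal carcinoma. A LINC name is the placeholder symbol given to a long intergenic noncoding RNA gene whose product has no better description. The members were chosen by detection: 200 of the 836 LINC genes on the array had a probe whose signal was well above background on all 3 arrays, and the brightest such probe stood for each gene. Under the same rule 17056 named genes of all kinds were detected, out of 41749 on the array. Because a member had to be detected on every array, LINC RNAs that dropped below background in a knockdown are not among the 200.

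A single array was hybridised for each group, namely the negative control (PRMT1-NC, here NC) and the knockdowns PRMT1-KD1 and PRMT1-KD2. Per the labels, all cells were HCT116, siRNA against PRMT1 was transfected with Lipofectamine, and total RNA was labelled with Cyanine-3; the labels do not say which siRNA belongs to which array. SMARCA4 knockdowns of the same study were not analysed here. With 1 array per group no test, p-value or replicate spread can be given, so each difference below describes these arrays and not the conditions. The error beside a difference is the scanner's own spot error, carried from both arrays.

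PRMT1 is the main enzyme that places asymmetric dimethyl marks on arginine, on histone H4 and on many RNA-binding proteins. Long noncoding RNAs are transcribed and mostly spliced like mRNAs, are usually less abundant and more tissue-restricted than mRNAs, and act in the nucleus on nearby genes, in the cytoplasm as binding partners of proteins and microRNAs, or with no known action. Several genes that began with LINC names have since been found to encode small proteins. Of the 200 members, 154 names are current symbols in RefSeq, 44 match through an older name and 2 (LINC00086 and LINC00087) are older names of more than 1 gene. RefSeq now lists 186 as long noncoding RNAs, 9 as protein-coding and 3 as transcribed pseudogenes.

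Signal is given as log2 intensity relative to the 75th percentile of all probes on the same array, so 0 is that percentile. PRMT1 itself stood at 6.03 on NC, 2.75 on KD1 and 1.48 on KD2, which is 10.3% and 4.26% of NC. Of the 8 epithelial marker genes 7 were detected on all 3 arrays and VIL1 on none. Of the fibroblast, endothelial and blood markers COL1A1, VWF, CDH5 and CD14 were detected on all 3 arrays, while COL1A2, COL3A1, DCN, LUM, PECAM1 and CD3E were above background on none. Between 40.7% and 42.3% of all probes were above background, and the KD1 array had 141 spots flagged as uneven against 6 (NC) and 5 (KD2). All member probes were printed as 1 spot per array. Repeated spots of other probes had a median SD of 0.041 to 0.053 (log2) within an array, and the scanner error of a member's difference ran from 0.204 to 0.434, with a median near 0.22.

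In KD1 more LINC RNAs were lower than higher than NC past 1.5-fold, except when arrays were scaled to spike-in probes. At a 2-fold limit (1 in log2) the counts were equal, 5 lower and 5 higher. Among all named genes the percentiles 2 and 97 lay close to that limit, at -1.01 and 1.04. A difference of over 1.5-fold, the study's fold, was seen downward in 43 members (21.5%) and upward in 13 (6.5%), beside 12% and 11.6% of all named genes. The median difference of the members was -0.14 (log2), with quartiles of -0.52 and 0.16, and that of all named genes was -0.07. Antisense long noncoding RNAs (names ending in -AS), of which 335 were detected, had 60 lower and 21 higher and a median of -0.15, while 12139 protein-coding genes had 9.35% lower and 14.0% higher. The 43 against 13 depended on how arrays were scaled. Scaled to the array median, 30 members were lower and 15 higher (15% and 7.5%), beside 7.72% and 15.9% of all named genes. Scaled to the 8 E1A spike-in probes (RNA added in known amounts), 4 were lower and 80 higher (2% and 40%), beside 0.821% and 48.3%. The median of all named genes itself moved by 0.11 and 0.63. Such scaling shifts every gene on an array by the same amount. The members' median minus that of all named genes, -0.0754, therefore could not change and is no check on the scaling. After another background correction (normexp), 10 were lower and 8 higher, 5% and 4%, beside 4.17% and 9.28% of all named genes. In RNA from a whole culture, fewer cells that make an RNA and less RNA per cell cannot be told apart.

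In KD2 the LINC RNAs lay close to the other genes. There were 17 members (8.5%) lower and 19 (9.5%) higher than NC by over 1.5-fold, beside 9.58% and 8.35% of all named genes, and the median difference was -0.04, against -0.06 for all named genes. This split too moved with the scaling. On the array median 31 were lower and 9 higher (15.5% and 4.5%), beside 17.4% and 4.84% of all named genes. On the spike-in probes 5 were lower and 44 higher (2.5% and 22%), beside 2.6% and 21%. The median of all named genes moved by -0.15 and 0.29. Of the members past 1.5-fold in KD2, 15 of the 17 and 18 of the 19 differed by more than 2 scanner errors, as did 40 of the 43 and all 13 in KD1. This was largely set by the 1.5-fold rule (0.585 in log2), since the median scanner error of a difference was near 0.22. The scanner error holds no spread between replicates.

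Compared directly, LINC RNAs were on balance higher in KD2 than in KD1, except when arrays were scaled to their median or to spike-in probes. Over 1.5-fold, 25 members (12.5%) were higher and 11 (5.5%) lower in KD2, beside 6.97% and 8.07% of all named genes, and the median difference was 0.16 against -0.01. On the array median the same comparison gave 14 higher and 30 lower (7% and 15%), beside 2.17% and 21% of all named genes. On the spike-in probes it gave 8 higher and 33 lower (4% and 16.5%), beside 1.55% and 26.9%. The median of all named genes moved by -0.27 and -0.34. The members' median lay 0.17 above that of all named genes, 0.14 with normexp and 0.12 after adjustment for the G and C content of the probes. Both knockdowns were set against the same NC array, so an odd value on NC enters both.

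**Figure D1:**
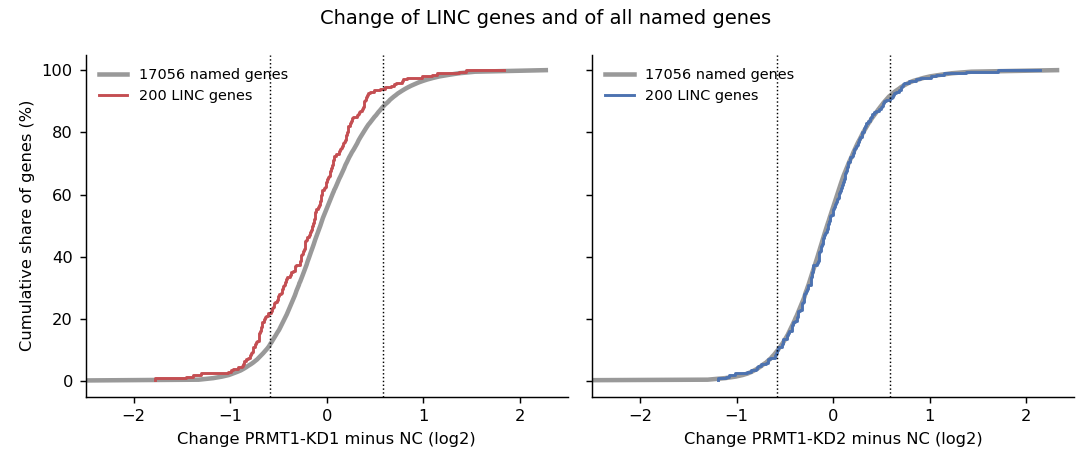
Cumulative share of genes (y axis, %) by difference from NC (x axis, log2) for the 200 LINC genes (coloured) and all 17056 named genes (grey), PRMT1-KD1 on the left and PRMT1-KD2 on the right; dotted lines mark 1.5-fold. In KD1 the LINC curve lies left of the grey curve, with 21.5% below the lower line against 12%, and in KD2 the curves run together. Scaled to the spike-in probes, 2% of members in KD1 would be below the lower line and 40% above the upper. Of all named genes 0.821% and 48.3% would be.

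The LINC RNAs with the lowest values in KD1 relative to NC were LINC01541, LINC01016, LINC00448, LINC01563 and LINC00923. None has a product or action known well enough to state. LINC01541 stood at -0.83 on NC, -2.61 on KD1 and -1.30 on KD2. KD1 was lowest, at 29.1% of NC (log2 -1.78, scanner error 0.32, and -0.90 with normexp), and KD2 was at 72.2%. LINC01016 stood at 1.02 on NC, -0.44 on KD1 and -0.09 on KD2. Both knockdown arrays were below NC, KD1 at 36.4% (-1.46, error 0.21) and KD2 at 46.3% (-1.11, error 0.21), and LINC01016 was also among the 5 lowest in KD2. LINC00448 read -0.43, -1.81 and -1.28 on NC, KD1 and KD2. It too was lower on both, at 38.3% (-0.74 in log2 with normexp) and 55.5% of NC. LINC01563, whose probe is split over distant positions of the genome as across a splice junction, read 4.76, 3.45 and 4.38, and LINC00923 read 1.43, 0.41 and 0.74. In both, KD2 lay between KD1 and NC, at 77.0% of NC for LINC01563 and 61.8% for LINC00923; on the spike-in scale the KD1 difference of LINC00923 was -0.39, within 1.5-fold. Of the 200 probes, 9 were split in this way, so that their coordinates span more than 60 bases.

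The probes behind these values are shown because their base composition bears on what follows. They are 60-base sequences from the scanner files, 5′ to 3′, placed on hg19, with G and C in capitals.
LINC01541, chr18:69190316-69190375 (- strand), 21 of 60 bases G or C: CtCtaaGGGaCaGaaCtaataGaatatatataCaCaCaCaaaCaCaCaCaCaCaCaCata
LINC01016, chr6:33857415-33857474 (- strand), 27 of 60 bases G or C: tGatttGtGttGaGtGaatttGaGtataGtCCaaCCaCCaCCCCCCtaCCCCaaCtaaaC
LINC00448, chr13:63246445-63246504 (- strand), 22 of 60 bases G or C: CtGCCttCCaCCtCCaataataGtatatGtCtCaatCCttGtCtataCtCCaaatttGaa
LINC01563, chr17:20979250-20988112 (+ strand), 31 of 60 bases G or C: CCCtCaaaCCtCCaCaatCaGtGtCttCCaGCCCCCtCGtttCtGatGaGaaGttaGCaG
LINC00923, chr15:98285898-98285957 (- strand), 30 of 60 bases G or C: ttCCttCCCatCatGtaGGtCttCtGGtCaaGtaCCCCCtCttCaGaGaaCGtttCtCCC

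The highest in KD1 were LINC01429, LINC01122, LINC00938, LINC01578 and LINC01510. LINC01429 stood at -1.71 on NC, 0.13 on KD1 and -1.28 on KD2, so that KD1 alone was high. It was 3.57-fold over NC there (1.84, error 0.26, and 0.97 with normexp) against 1.34-fold in KD2. Its nearest measured gene, the stem-cell transcription factor SALL4, differed by 0.21 in KD1 and 0.60 in KD2. LINC00938 read -0.31, 1.05 and 0.16 (2.58-fold in KD1 and 1.39-fold in KD2), with KD1 again the high array. LINC01578 is CHASERR, an RNA made just upstream of the chromatin remodeller gene CHD2 and known to restrain CHD2 expression. It read -0.51 on NC, 0.63 on KD1 and 0.09 on KD2, higher on both knockdown arrays, by 2.21-fold (1.15, error 0.22) and 1.52-fold (0.61, error 0.22). CHD2, its nearest measured gene, was 0.38 above NC in KD1 and 0.27 in KD2, within 1.5-fold. LINC01510, now COMETT, is transcribed next to the receptor tyrosine kinase gene MET. It read -1.29, -0.20 and -0.55, again higher on both, by 2.13-fold and 1.66-fold (0.50 in KD1 with normexp, within 1.5-fold), while its nearest measured gene CAV1 (the membrane protein caveolin-1) differed by -0.21 and -0.08.

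LINC01122 stood at 2.15 on NC, 3.59 on KD1 and 3.01 on KD2, a difference of 1.44 (error 0.20) in KD1 and 0.86 in KD2. A second detected probe for LINC01122 gave the other sign, with 0.73 on NC, 0.29 on KD1 and 0.50 on KD2, or -0.44 and -0.23. The brighter probe carries a run of GT repeats and the other does not, as the sequences show. Among all named genes the letters GTGTGTGT occurred in 90 of 17056 probes (0.528%), read on the strand of the probe. Of those 90, 36 were over 1.5-fold higher and 4 lower in KD1, beside 11.6% and 12% of all named genes. In KD2, 33 were higher and 5 lower, beside 8.35% and 9.58%. The 90 had medians of 0.29 in KD1 and 0.40 in KD2. The other member with these letters, LINC00942, differed by 0.19 and 0.55. The nearest measured gene to LINC01122, LOC101927285, differed by 1.51 and 0.95, and its probe holds such a repeat as well. LINC01541, the lowest in KD1, has the complementary letters CACACACA, as do 39 probes of named genes (0.229%), of which 12 were lower and 7 higher in KD1 (median -0.43); the other member among them, LINC01475, differed by -0.74 in KD1 and -0.31 in KD2. The part of these repeats in the differences was not tested.
LINC01429, chr20:50459224-50459283 (- strand), 28 of 60 bases G or C: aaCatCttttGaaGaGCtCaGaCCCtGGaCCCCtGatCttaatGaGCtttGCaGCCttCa
LINC01122, chr2:59290657-59290716 (+ strand), 21 of 60 bases G or C: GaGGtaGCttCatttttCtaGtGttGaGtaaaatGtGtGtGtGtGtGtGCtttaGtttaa
LINC00938, chr12:46120105-46120164 (- strand), 21 of 60 bases G or C: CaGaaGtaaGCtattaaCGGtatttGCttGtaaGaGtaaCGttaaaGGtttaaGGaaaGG
LINC01578, chr15:93441918-93441977 (+ strand), 21 of 60 bases G or C: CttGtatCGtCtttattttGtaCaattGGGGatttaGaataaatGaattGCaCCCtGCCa
LINC01510, chr7:116211024-116211083 (- strand), 21 of 60 bases G or C: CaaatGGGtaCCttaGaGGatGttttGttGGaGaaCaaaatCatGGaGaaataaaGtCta
LINC01122, second probe, chr2:59252005-59252064 (+ strand), 30 of 60 bases G or C: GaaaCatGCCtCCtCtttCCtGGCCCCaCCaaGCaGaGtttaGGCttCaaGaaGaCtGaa

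In KD2 the lowest besides LINC01016 were LINC00515, LINC00116, LINC01198 and LINC00612. LINC00515 read -1.18 on NC, -1.61 on KD1 and -2.37 on KD2, so KD2 was at 43.7% of NC (-1.19, error 0.31) and KD1 at 74.1%. Its nearest measured gene, MRPL39, a protein of the mitochondrial ribosome, differed by -0.19 in KD1 and -0.56 in KD2. LINC00116 now has the symbol MTLN and encodes mitoregulin, a microprotein of the mitochondrial membranes. It read 7.30 on NC, 7.24 on KD1 and 6.22 on KD2. KD1 equalled NC within the scanner error (-0.05, error 0.20) and KD2 was at 47.3% of NC (-1.08, error 0.20). LINC01198 had the same order, -0.42, -0.44 and -1.44, and LINC00612 read -1.42, -1.57 and -2.31. In these, KD2 was the single low array. With normexp the KD2 differences of LINC00515, LINC01198 and LINC00612 were -0.47, -0.47 and -0.32, within 1.5-fold.

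The highest in KD2 were LINC01192, LINC01447, LINC01511, LINC01564 and LINC01554. LINC01192 stood at -1.94 on NC, -2.64 on KD1 and 0.20 on KD2. It was the only member over 1.5-fold from NC in opposite directions, at 61.5% of NC in KD1 (-0.70, error 0.36) and 4.41-fold higher in KD2 (2.14, error 0.27). The KD1 difference was within 1.5-fold with normexp (-0.42), quantile normalization (-0.58) and the spike-in scale (-0.07). With normexp the KD2 difference was 1.04, smaller but past 1.5-fold. Its KD2 spot had a pixel scatter at the 98.8th percentile of spots of like brightness on that array. LINC01447 read 0.81, 1.51 and 2.51, above NC in both knockdowns (1.63-fold and 3.26-fold), with KD2 the highest. LINC01511 read 0.56, 0.95 and 1.93 (2.60-fold in KD2), but its second detected probe differed by -0.07 in KD1 and 0.47 in KD2, within 1.5-fold. LINC01564 read -0.43, -0.56 and 0.71 (2.21-fold), and LINC01554 read 2.11, 2.24 and 3.18 (2.10-fold). For LINC01564 and LINC01554, KD1 lay within the scanner error of NC, and their nearest measured genes stayed within 1.5-fold in KD2, KLHL31 beside LINC01564 at -0.58 and the elongation factor gene ELL2 beside LINC01554 at 0.58.

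Between the knockdown arrays the widest differences among members were those of LINC01192 (2.84 higher in KD2), LINC01429 (-1.41), LINC01541 (1.31), LINC01003 (-1.31) and LINC01564 (1.27). LINC01003, of no known action, read -1.73 on NC, -0.74 on KD1 and -2.05 on KD2, so it was 1.98-fold over NC in KD1 and at 80.0% of NC in KD2; with normexp KD2 minus KD1 was -0.57, within 1.5-fold.

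**Figure D2:**
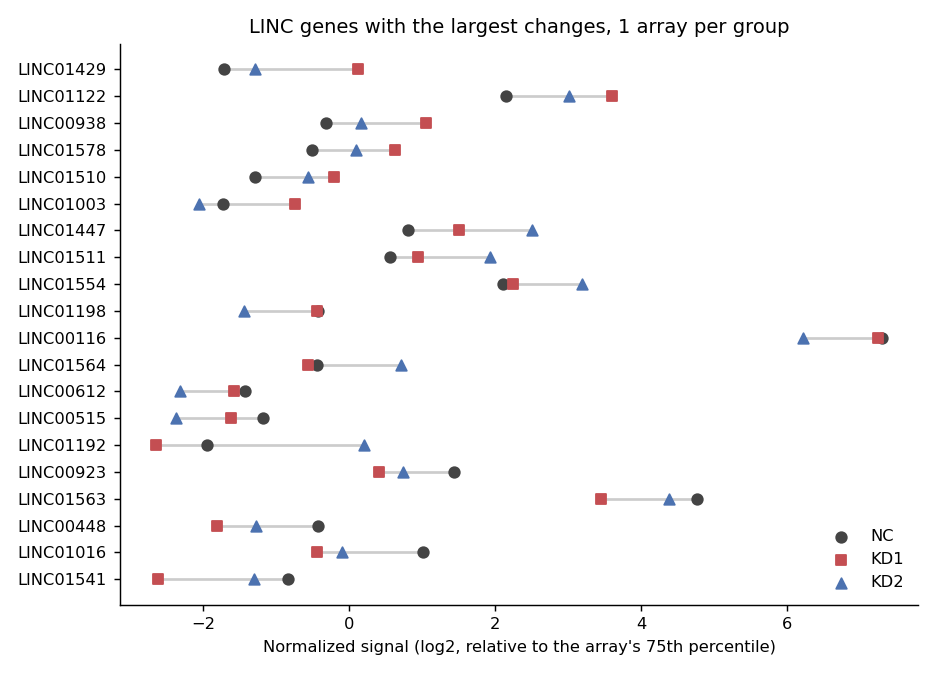
Normalized signal (x axis, log2 relative to the array's 75th percentile) of the 20 LINC genes with the largest differences, with NC (circle), PRMT1-KD1 (square) and PRMT1-KD2 (triangle) joined by a line; rows are ordered by the KD1 difference, and each symbol is 1 array. LINC01016 has both knockdown symbols left of NC, LINC01510 and LINC01578 have both to the right, and LINC01192 has NC between KD1 (-2.64) and KD2 (0.20).

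Members with a described product or action were looked at as a group. Of 42 such LINC names listed, 41 were on the array and 26 were members. In KD1, 2 of the 26 were over 1.5-fold lower and 2 higher, and in KD2 2 were lower and 3 higher, with medians of 0.07 and -0.03. That left 22 of 26 within 1.5-fold in KD1 and 21 in KD2, beside 76.4% and 82.1% of all named genes. Among 8 members that have been described as encoding small proteins, 0 were past 1.5-fold in KD1 and 1 was in KD2, LINC00116 (above), by the brightest probe of each gene. LINC00493 (SMIM26, a mitochondrial membrane microprotein) read 6.72, 6.94 and 6.55 on NC, KD1 and KD2. LINC00998 (SMIM30, a small membrane protein) read 4.51, 4.19 and 4.14. LINC01420 encodes NBDY, which binds the mRNA decapping complex, and read 6.06, 6.23 and 5.84. All 3 lay within 0.37 of NC. LINC00467 (3.93, 3.88 and 3.50) and LINC00094, now BRD3OS (3.83, 3.48 and 3.54), were at most 0.42 below NC by these probes. Each had a second detected probe over 1.5-fold below NC in KD2, with differences of -0.49 in KD1 and -0.79 in KD2 for LINC00467 and of -0.34 and -0.62 for LINC00094. LINC00087 read -0.42, -0.60 and -0.70, and LINC00086 read -2.61, -2.52 and -2.26, close to background. The probes of LINC00086 and LINC00087 share 41 consecutive bases, so each may have caught RNA of the other.

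Among the 5 detected RNAs with a described molecular action, 1 was over 1.5-fold higher in KD1 (LINC01578, above) and 3 in KD2, beside 11.6% and 8.35% of all named genes. With median scaling none of the 3 passed 1.5-fold in KD2 (0.53 for LINC00657, 0.45 for LINC01578 and 0.46 for LINC00673), and with normexp LINC00657 (0.55) and LINC01578 (0.35) did not. LINC00657, or NORAD, an abundant cytoplasmic RNA that binds PUMILIO proteins, read 0.90 on NC, 1.32 on KD1 and 1.58 on KD2, which is 0.42 and 0.68 above NC (error 0.21 and 0.20). LINC00673, which has been tied to turnover of the phosphatase PTPN11, read 4.19, 4.52 and 4.81, or 0.33 and 0.62 above NC. By these probes both were above NC on both knockdown arrays. LINC00673 had 3 further detected probes, which differed by -0.16, -0.05 and 0.66 in KD1 and lay 0.07 to 0.31 above NC in KD2. LINC00152, or CYTOR, read 7.99, 7.87 and 8.32, and LINC01021, the p53-induced RNA PURPL, read -0.93, -0.79 and -1.21. Neither was past 1.5-fold on either array.

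Of 13 detected members that have been studied in epithelial cancers, 10 were within 1.5-fold in KD1 and 12 in KD2, beside the 76.4% and 82.1% of all named genes. LINC01089 was lower on both arrays, with 2.54 on NC against 1.91 on KD1 and 1.74 on KD2 (-0.63 and -0.79, error 0.21 and 0.20). Its other detected probe differed by 0.02 and -0.07, and on the spike-in scale the KD1 difference was 0.0037. LINC00662 read 2.26, 1.58 and 2.37, low on KD1 alone (-0.68), but its KD1 spot was uneven, above 99% of spots of like brightness, and its 4 further probes differed by -0.19 to 0.34. LINC00707 read -0.53, 0.19 and -1.06, high on KD1 (0.72) and low on KD2 (-0.53), but its second detected probe differed by 0.33 and 0.05, and with normexp the KD1 difference was 0.49. The other 10 ranged from -0.18 to 0.40 in KD1 and from -0.31 to 0.34 in KD2 by their brightest probes. Of the 6 detected probes of LINC00963, 3 were over 1.5-fold lower in KD2, down to -0.73, while the brightest gave -0.06. LINC00460, an RNA reported as raised in many carcinomas, read 2.61, 2.83 and 2.79, and LINC00857 read 2.53, 2.74 and 2.84.

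**Figure D3:**
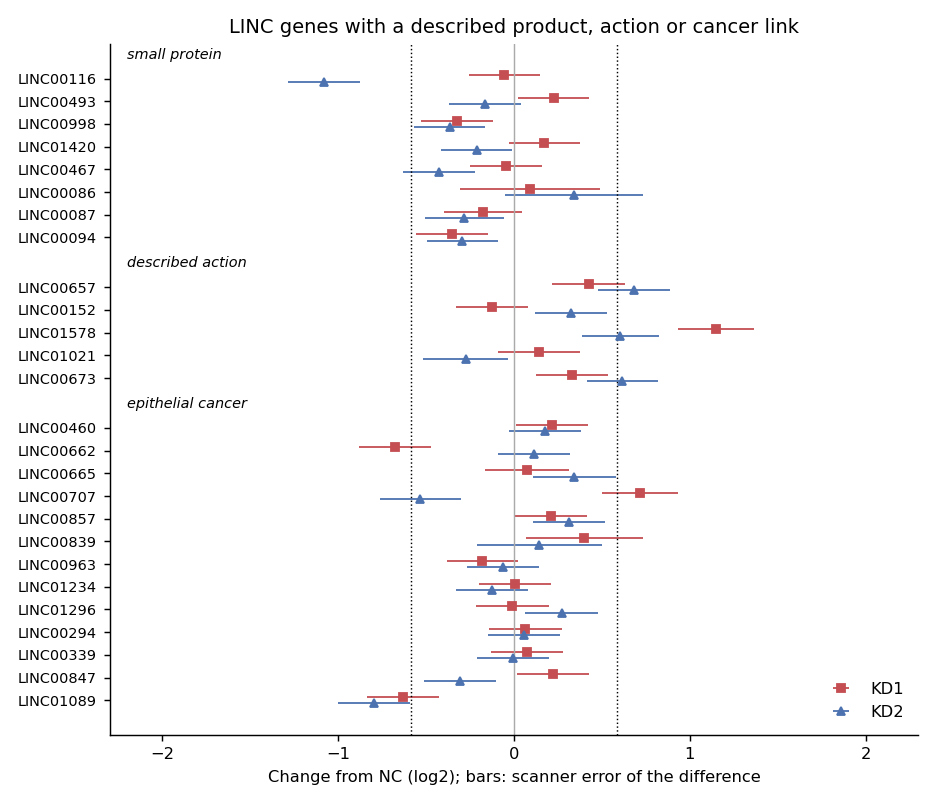
Difference from NC (x axis, log2) of 26 detected LINC genes with a described product, action or cancer link, with PRMT1-KD1 as squares and PRMT1-KD2 as triangles; bars are the scanner error of the difference and dotted lines mark 1.5-fold. Most symbols lie between the lines; LINC00116 in KD2 (-1.08) and LINC01578 in KD1 (1.15) lie outside them with their bars.

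The differences went with the base composition of the probe. The members' probes held 23.3% to 73.3% G and C, with a median of 45%. In KD1 the 68 members with probes at or above 50% G and C had a median of -0.40, with 21 lower by over 1.5-fold (30.9%) and 0 higher, beside 21.8% and 2.34% of all named genes in that class. The 47 members under 40% had a median of 0.05, with 5 lower and 7 higher (10.6% and 14.9%), beside 5.41% and 21.7% of all named genes. The 85 between had -0.11, with 17 and 6 (20% and 7.06%), beside 10.8% and 10.1%. All named genes showed the same order, with medians of 0.17 under 40%, -0.05 between and -0.31 at or above 50%. In KD2 the members' medians were 0.06, 0.01 and -0.13 from the lowest to the highest class. As a description across 200 members that share these 3 arrays, Spearman's rho between G and C content and the difference was -0.35 in KD1 and -0.09 in KD2, beside -0.38 and -0.19 across all named genes. With the median of all named genes of like G and C content subtracted, a step added after the data were seen, 25 members were lower and 16 higher in KD1 (12.5% and 8%, beside 8.67% and 11.1% of all named genes), and 12 lower and 24 higher in KD2 (6% and 12%, beside 7.43% and 9.67%). The part of base composition in the differences was not tested.

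**Figure D4:**
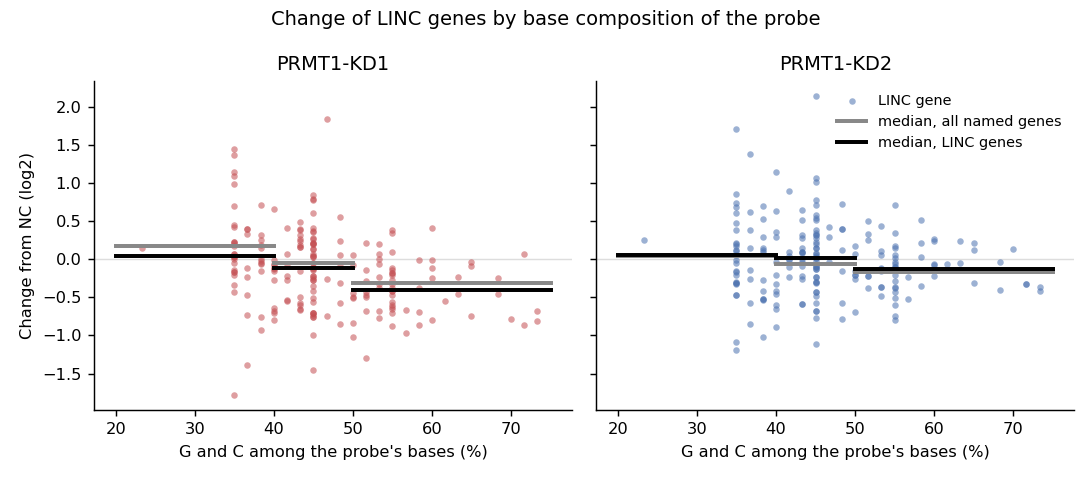
Difference from NC (y axis, log2) against the share of G and C in the probe (x axis, %) for 200 LINC genes, PRMT1-KD1 on the left and PRMT1-KD2 on the right; black lines are medians of the LINC genes and grey lines medians of all named genes in 3 classes of G and C content. In KD1 both medians step down, from 0.05 to -0.40 for the LINC genes, and in KD2 they step from 0.06 to -0.13.

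Brightness showed no clear relation with the differences (Spearman's rho 0.08 in KD1 and -0.02 in KD2, a description over the same 200 members). Divided into 4 equal classes by mean signal, the members had KD1 medians of -0.19, -0.17, -0.07 and -0.13 from dimmest to brightest, beside -0.19, -0.09, -0.03 and -0.04 for all named genes in the same signal ranges. The members' spread (robust SD) in KD1 was 0.59 in the dimmest class and 0.47 in the brightest.

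Where a member had several detected probes, few differences past 1.5-fold by the brightest probe were so by every probe. A further detected probe existed for 47 members, which had 133 detected probes in all. The distance between the highest and lowest difference from NC of a gene's probes had a median of 0.38 in KD1 and 0.39 in KD2. It reached 1.88 (LINC01122 in KD1). The median scanner error of 0.22 is that of a single difference. A distance over several probes holds the error of each, so the 2 are unlike measures. The part of spot error in the distances was not tested. Probes of other genes were not compared in this way. By the brightest probe, 76.4% of all named genes lay within 1.5-fold in KD1 and 82.1% in KD2. In KD1, 10 of the 47 were past 1.5-fold by the brightest probe and 0 by every probe, and in KD2 this was 5 and 1. That 1 was LINC00624, whose probes at separate positions gave 0.90 and 0.87 in KD2 and 0.41 and 0.27 in KD1. Their signals on NC, KD1 and KD2 were -1.66, -1.25 and -0.76 for the brighter and -2.34, -2.07 and -1.47 for the dimmer, so NC was lowest and KD2 highest by both. Both probes were dim, and the lowest member signal on NC was -2.61. LINC00624 was not among the single members followed under other processing. LINC01405 came near being past 1.5-fold by every probe in KD1, with -0.73, -0.57 and -0.78 by its 3 probes. No member had probes past 1.5-fold on both sides of NC in the same knockdown. LINC01405 and LINC00624 were singled out after their values were seen, and the LINC00624 probes are shown as the pair that gave like values.
LINC00624, brighter probe, chr1:146854022-146854081 (- strand): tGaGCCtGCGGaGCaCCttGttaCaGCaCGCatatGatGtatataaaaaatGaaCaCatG
LINC00624, dimmer probe, chr1:146986262-146987396 (- strand): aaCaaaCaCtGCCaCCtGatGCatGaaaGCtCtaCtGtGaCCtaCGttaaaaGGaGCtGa

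**Figure D5:**
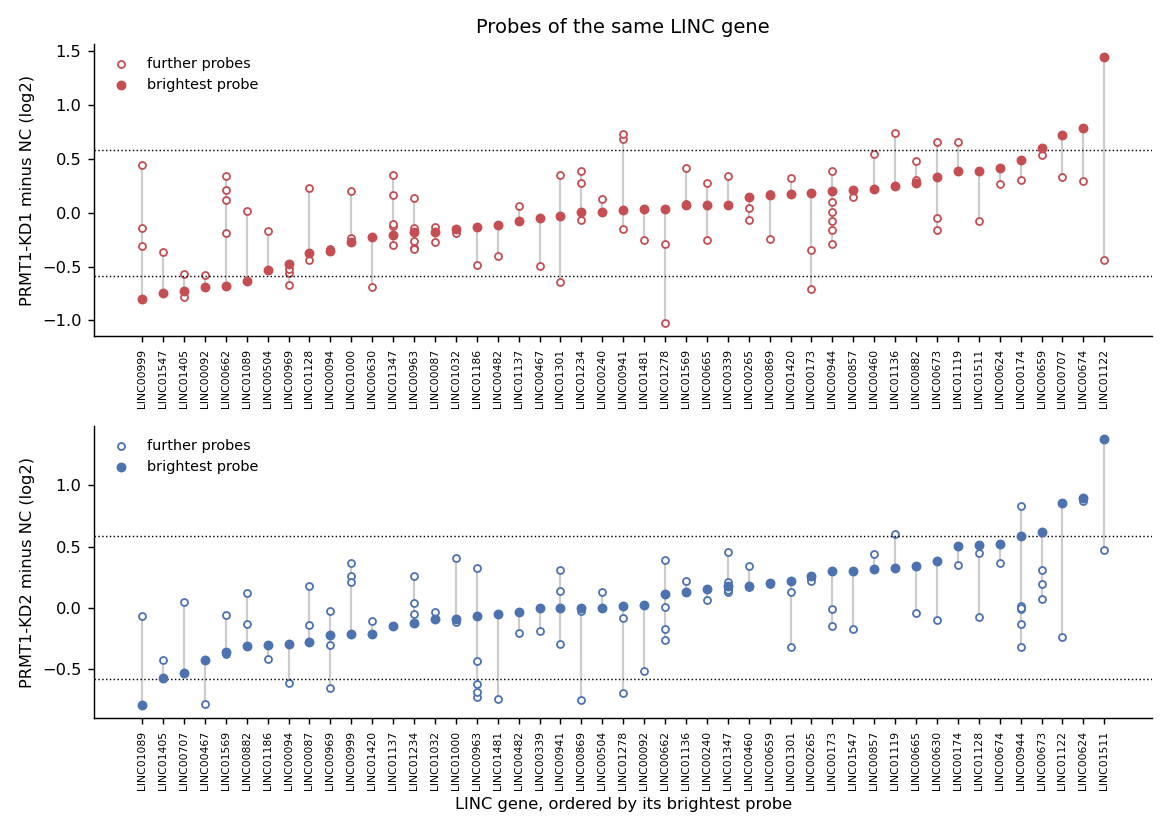
Difference from NC (y axis, log2) by each detected probe of the 47 LINC genes with more than 1, PRMT1-KD1 above and PRMT1-KD2 below; filled points are the brightest probe, open points the further probes, lines join probes of a gene and dotted lines mark 1.5-fold. Many lines are longer than 0.38, the median in KD1, and LINC01122 at the right of the upper panel spans from -0.44 to 1.44.

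The genes beside the members were compared in the same way. The nearest measured gene without a LINC name, by hg19 probe positions, lay a median of 56202 bases away. Of the 43 members lower in KD1, 2 had a neighbour that was also over 1.5-fold lower, and of the 13 higher members 3 had a higher neighbour, where 12% and 11.6% of all named genes were lower and higher. In KD2 the counts were 0 of 17 and 3 of 19, where 9.58% and 8.35% were. The higher pairs of both knockdowns included LINC01122 with LOC101927285, whose probes both hold a repeat (above). Spearman's rho between member and neighbour, as a description over 200 pairs on the same arrays, was 0.12 in both, and 0.23 in KD1 and 0.22 in KD2 over the 29 pairs within 10000 bases.

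Some members have since been renamed after a partner gene, 9 as divergent transcripts that start beside it on the opposite strand and 4 as antisense RNAs. These names were looked at after the values were seen, and 12 of the 13 partners were detected. In KD1, 3 of the 12 members and 4 of the 12 partners were past 1.5-fold, with no pair in which both were, and in KD2 0 and 2 were. Of all named genes, 76.4% lay within 1.5-fold in KD1 and 82.1% in KD2, so few pairs with both past it could be looked for. Member and partner lay on opposite sides of NC in 4 pairs of the 12 in KD1 and in 4 in KD2. LINC00884 (ATP13A3-DT) read 0.47, -0.24 and 0.24, below NC in KD1 (-0.71), where ATP13A3, a transporter of the P5 ATPase family, was at 0.44. LINC00271 (AHI1-DT) read 3.45, 2.76 and 3.03, below NC in KD1 (-0.68), while the ciliary gene AHI1 was at 0.37. The other pairs on opposite sides in KD1 were LINC01032 (RGS2-AS1, -0.15) with the G-protein regulator gene RGS2 (1.39), the widest gap of the 12, and LINC01534 (ZNF567-DT, -0.22) with ZNF567 (0.84). LINC01136 (BTG2-DT) read -0.93, -0.68 and -0.80, 0.25 and 0.13 above NC, and BTG2, an antiproliferative p53 target, was at 1.00 and 0.57. LINC01006 (RNF32-DT) and RNF32 were both below NC, at -0.50 and -0.59 in KD1 and -0.14 and -0.45 in KD2. LINC01057 (SLC44A3-AS1) was at -0.86 and -0.58, and SLC44A3, of the choline transporter-like family, at -0.18 and -1.25.

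At the detection limit the members LINC01204, LINC00086 and LINC01540 had the lowest processed intensities on their dimmest array, before scaling: 18.4 on KD2, 18.8 on NC and 18.8 on NC. LINC01204 read -2.14, -2.26 and -2.74 on NC, KD1 and KD2, and LINC01540, the colon- and stomach-cancer RNA GAPLINC, read -2.61, -2.23 and -1.96. Just outside the rule were LINC00641 (-2.82, -1.20 and -1.39) and LINC01004 (-2.63, -1.64 and -1.34), not well above background on NC, and LINC01389 (-1.51, -1.73 and -2.85), not well above background on KD2. In all, 554 LINC genes were above background on none of the arrays, 17 on NC alone, 9 on KD1 alone, 30 on KD2 alone, 17 on both knockdowns but not NC, 5 on NC and KD1 and 4 on NC and KD2. Of all probes, 40.7% were above background on NC, 41.6% on KD1 and 42.3% on KD2. The same patterns were not counted for all named genes, so these counts cannot be read as particular to LINC genes.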

How the data were processed

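Total RNA of HCT116 cells (NC, PRMT1-KD1 and PRMT1-KD2, 1 array each, all on 1 slide read in 1 scan) was hybridised to 1-colour Agilent arrays with 60-base probes. The authors deposited scanner intensity values from Agilent Feature Extraction 10.7.1.1 (per the labels); the processed intensity is background-corrected, and the deposited series table holds the same values. The number of arrays limits the precision. Probes with outlier flags were left out (130 of 58201 probes had no usable spot on an array), log2 values of repeated spots were averaged, and values were centred on the 75th percentile of their array. Control probes were excluded. A LINC gene was a member if a probe was well above background on all 3 arrays (286 of 1651 LINC probes), and the probe with the highest mean stood for it. Differences over 1.5-fold were counted, with no test. The error of a difference combines the scanner's spot errors. The members and lists were chosen with earlier results of these data known.

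Named were the 5 lowest and 5 highest members in each knockdown, the 5 with the largest difference between knockdowns, all detected members of the lists of described RNAs, 3 members just inside and 3 LINC genes just outside the detection rule, and nearest measured genes. A blood cell marker is not reported here. Names came from RefSeq (GRCh38.p14 table, names only) and positions from the array files (hg19). Alternatives were normexp (limma 3.58.1 in R 4.3.3, offset 50), quantile, median and spike-in scaling, other probe rules and a 2-fold limit. Calculations used Python 3.11.15 with pandas 2.3.3 and numpy 2.4.6, and the counting steps were tested on simulated data.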

Additional observations from a re-analysis of the deposited data

Results flagged for a closer look

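LINC01192 lay over 1.5-fold from NC in opposite directions in the 2 knockdowns, at -0.70 (log2) in KD1 and 2.14 in KD2. The KD1 value was -0.42 with normexp, -0.58 with quantile normalization and -0.07 on the spike-in scale, all within 1.5-fold. The KD2 value was 1.04 with normexp. The difference between the knockdowns was not tested, since each is 1 array.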

How the results depend on the processing

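No paired analysis was possible because each group has 1 array. Counts are given in the order lower and higher than NC in KD1, lower and higher than NC in KD2, and lower and higher in KD2 than in KD1; the reported counts were 43, 13, 17, 19, 11 and 25. With normexp they were 10, 8, 4, 7, 5 and 11, beside 4.17%, 9.28%, 4.86%, 4.14%, 5.91% and 1.92% of all named genes. With a 2-fold limit (1 in log2) they were 5, 5, 4, 6, 5 and 6. Percentiles of all named genes close to that limit were 2 (-1.01) and 97 (1.04) in KD1. In KD2 they were 1.5 (-1.01) and 98 (1.01), and for KD2 minus KD1 they were 1 (-1.09) and 99 (1.04). On the spike-in scale they were 4, 80, 5, 44, 33 and 8, beside 0.821%, 48.3%, 2.6%, 21%, 26.9% and 1.55% of all named genes. For the 100 brighter members they were 18, 7, 5, 8, 3 and 10 (18%, 7%, 5%, 8%, 3% and 10%). All named genes without the dimmer members had 11.9%, 11.7%, 9.57%, 8.34%, 8.07% and 6.92%. With median scaling they were 30, 15, 31, 9, 30 and 14, beside 7.72%, 15.9%, 17.4%, 4.84%, 21% and 2.17% of all named genes. Over the 282 LINC genes above background on at least 1 array they were 60, 21, 29, 39, 17 and 46. The shares of all named genes under that rule were 13.5%, 11.9%, 10.2%, 9.37%, 8.71% and 9.43%. The 75th percentile over detected probes gave 39 higher in KD2 than in KD1 (19.5%, beside 10.3% of all named genes). Adjustment for G and C content, chosen after seeing the data, gave 25 lower in KD1 (12.5%, beside 8.67%). The median member difference in KD1 was -0.0287 with median scaling, -0.19 with the percentile over detected probes, 0.49 on the spike-in scale, -0.21 over the 282 genes and -0.0877 after adjustment for G and C content. In KD2 it was -0.20, 0.00587 and 0.25 under the first 3 of these and 0.0446 after that adjustment. Quantile normalization, the series table, averaged probes, kept outlier spots, current noncoding names (154 of 200 members) and leaving out uneven spots kept every count within 1.5 times.

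Of 409 values of single members under alternatives, 379 kept their direction and side of 1.5-fold, 29 dropped below it and 1 changed sign (LINC01089 in KD1, 0.0037 on the spike-in scale). Several alternatives left a member's value as it was, and most of these members were chosen for extreme values, so the 379 is no measure of robustness. Such alternatives were those that only select genes, the series table and, for genes with 1 detected probe, averaged probes. Why the counts moved was not tested. Dim probes limit the precision: the scanner error of a difference reached 0.434 among the members.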
